A study of Glycine max with 5 samples.

Results

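Selection by gene symbol gave 5 probe sets of germin-like proteins on the soybean GeneChip, for 3 genes, GER10, GER16 and GER2, of the 6029 genes to which the array annotation gives a probe set with a single symbol. They were taken as all probe sets whose only gene symbol in the array annotation is GER followed by a digit or starts with GLP, among 37593 soybean probe sets. No symbol starting with GLP was found. GER10 was lower in pollen, where no array reached a linear signal of 100 on either of its probe sets, against 4926 to 20938 in sporophytic tissues. GER16 was lower by 1.21 log2 units with the deposited values, and GER2 gave a very low signal on every array.

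The arrays measured total RNA of mature pollen grains (3 arrays) and of sporophytic tissues of 10-day-old seedlings (2 arrays), both from Glycine max (L.) Merr. cultivar Bragg. Pollen came from glasshouse plants brought to flower by a shorter photoperiod, and was shed from detached anthers and freed of anther remains. The sources differ on the sporophytic organs, since the methods name primary stem, primary roots and mature leaves, and the results text names leaves and stems in one place and roots as well in another. Signals are log2 values, obtained by Robust Multiarray Averaging (RMA) according to the methods, and each log2 difference is pollen minus sporophytic tissues.

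Germin-like proteins are secreted glycoproteins of the cupin superfamily, which share a barrel fold with seed storage globulins. A cluster of histidines and a glutamate holds a manganese ion in the barrel. The germins of cereals are oxalate oxidases that release hydrogen peroxide in the cell wall, and several germin-like proteins of other plants act as superoxide dismutases. Members of the family are known from growing walls, from seedlings and from defence against pathogens.

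Few genes of the family carry their symbol in the array annotation. The RefSeq gene table of assembly Glycine_max_v4.0 lists 18 genes with a GER symbol, and 3 of them carry a probe set here. All 5 probe sets matched this table under the same symbol. GER16 lies next to GER17 and GER2 lies next to GER3 in that table, and no probe set is annotated with the symbol GER17 or GER3, though 28546 probe sets have no symbol. Whether these neighbours add to the signal was not tested. The 2 probe sets of GER10, one with the ending _a_at (probes shared by several transcripts of one gene) and one with the plain ending _at, carry the same expressed sequence tag in the annotation and are not independent. Those of GER2, one with the plain ending _at and one with the ending _s_at (probes shared by transcripts of different genes), carry different tags, and GER16 has a single _a_at probe set.

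Array quality and identity were read from a few values. The median log2 signal of all probe sets was 4.11 to 4.24 on the pollen arrays, against 5.25 and 5.43 on the sporophytic arrays, a shift of -1.15 in the mean of the medians. Quantile normalization of the 5 arrays together, a usual step of RMA, would have left these medians nearly equal. How the deposited values were scaled was not tested. A linear signal of at least 100 (6.64 on the log2 scale), which the methods use as a minimum, held for 18.4 to 19.9% of probe sets on the pollen arrays, against 33.7 and 35.9% on the sporophytic arrays. The difference between arrays of one group had an SD over probe sets of 0.285 to 0.426 in pollen and 1.06 in sporophytic tissues. All 6 pollen markers taken from the list of transcripts higher in pollen, among them the proton pump AHA8 and a match to LAT59, reached the minimum on every pollen array and on no sporophytic array. This list was drawn from these same arrays and is not independent. Among green tissue markers by gene symbol, pollen was lower on 6 of 11 probe sets and higher on 1, and 4 missed the threshold. Of all probe sets, 34.5% were lower and 18.9% were higher. The higher call, on a PSAD probe set, was near the floor, with means of 2.92 in pollen and 2.57 in sporophytic tissues. The summed linear signal of the 11 was 1641 to 1895 on the pollen arrays, against 124226 and 67489 on the sporophytic arrays. Of these 11, 4 reached the minimum on every pollen array and 6 on every sporophytic array, so pollen was not free of their signal. The 4 included CAB3, a chlorophyll a/b binding protein, with means of 8.82 and 8.59 in pollen. The paper reports no transcript of that family among those expressed in pollen, a set drawn with present calls, which were not analysed here. None of 3 root marker probe sets (NRT2, PHT1-3 and PHT1-8) reached the minimum on any array, with a summed signal of 16 on the pollen arrays, against 17 and 15 on the sporophytic arrays. Signals this near the floor cannot show whether root RNA was present.

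GER10 was bright in seedlings and near the bottom of the scale in pollen. The _a_at probe set had log2 signals of 2.79, 2.88 and 2.78 on the pollen arrays, against 13.13 and 14.35 on the sporophytic arrays. All pollen arrays were low and both sporophytic arrays were high, with a gap of 10.25 between the groups. On the linear scale these are signals of 6.90, 7.38 and 6.89 in pollen and of 8994 and 20938 in sporophytic tissues. The _at probe set had 2.50, 2.50 and 2.39 in pollen, against 12.27 and 13.20 in sporophytic tissues. It showed the same separation, with a gap of 9.76.

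The _a_at probe set averaged 2.82 ± 0.06 on the pollen arrays and 13.74 ± 0.86 on the sporophytic arrays (SD, n = 3 and 2), and the log2 difference was -10.93 with a 95% interval of -12.07 to -9.78 (standard error 0.40, limma adjusted p = 0.000216). The _at probe set averaged 2.46 ± 0.07 in pollen and 12.74 ± 0.66 in sporophytic tissues, and the log2 difference was -10.27 with a 95% interval of -11.16 to -9.38 (standard error 0.31, limma adjusted p = 0.000142). The _a_at signal exceeded the _at signal by 0.28 to 0.40 in pollen, against 0.87 and 1.15 in sporophytic tissues. Over the 6 pairs of a pollen and a sporophytic array, the difference lay between -10.25 and -11.57 for the first probe set and between -9.76 and -10.82 for the second.

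In pollen the values lay near the floor of the scale, which sets the size of these differences. Both GER10 probe sets were below the lower quartile of each pollen array. Set against a pollen signal of 100, which no pollen array reached, the sporophytic signal (2 to the power of the mean log2 value) was 137-fold higher for the _a_at probe set and 68.2-fold higher for the _at probe set. A lower share of cells with the transcript and less of it per cell cannot be told apart in such bulk samples.

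**Figure D1:**
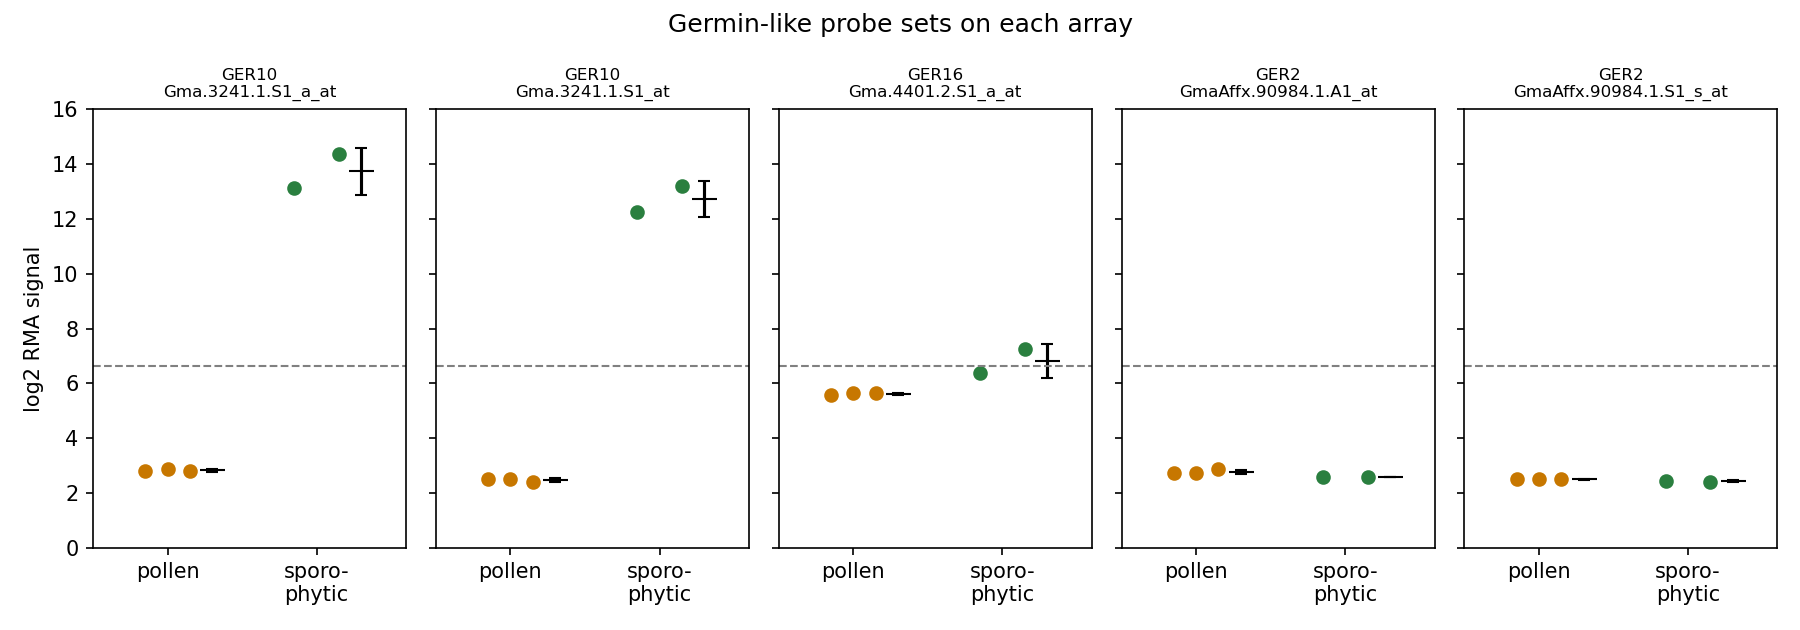
Log2 RMA signal of each germin-like probe set on the 3 pollen arrays (orange, left) and the 2 sporophytic arrays (green, right), 1 point per array, with group mean and SD in black and the log2 value of a signal of 100 (6.64) as a dashed line. GER10 lies at 2.39 to 2.88 on the pollen arrays and at 12.27 to 14.35 on the sporophytic arrays, GER16 crosses the dashed line on 1 sporophytic array only, and GER2 reaches at most 2.86.

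GER16 was dimmer and moved much less. Its probe set had log2 signals of 5.57, 5.64 and 5.64 in pollen, against 6.39 and 7.26 in sporophytic tissues. The groups did not overlap, but the gap of 0.75 between them was smaller than the 0.87 between the sporophytic arrays. No pollen array reached a linear signal of 100, while the sporophytic arrays had 83.9 (replicate 1) and 154 (replicate 2).

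GER16 averaged 5.62 ± 0.04 on the pollen arrays and 6.83 ± 0.62 on the sporophytic arrays (SD, n = 3 and 2). The log2 difference was -1.21 with a 95% interval of -2.03 to -0.39 (standard error 0.29, limma adjusted p = 0.0314). In the distribution of all differences, 35.4% of probe sets lay lower. The interval of GER16 assumes equal variance in both groups, so it may be too narrow given the larger sporophytic SD. The call also depended on the scaling. GER16 was 0.35 higher in pollen when the table was quantile normalized (limma adjusted p = 0.227) and 0.060 lower when the array medians were made equal (limma adjusted p = 0.827). It also missed the threshold when any 1 pollen array was left out, with limma adjusted p of 0.0999, 0.102 and 0.102 without pollen replicates 1, 2 and 3. The difference was -1.64 without sporophytic replicate 1 and -0.77 without sporophytic replicate 2.

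GER2 gave no signal near the minimum on any array. Its _at probe set had 2.71, 2.72 and 2.86 in pollen, against 2.58 and 2.59 in sporophytic tissues. The _s_at probe set had 2.49, 2.52 and 2.50 in pollen, against 2.45 and 2.40 in sporophytic tissues. On all 5 arrays both values were below the lower quartile, and the pollen arrays lay slightly above the sporophytic arrays. The log2 differences were 0.18 (standard error 0.07, 95% interval -0.03 to 0.38, limma adjusted p = 0.117) for the _at probe set and 0.08 (standard error 0.05, 95% interval -0.06 to 0.21, limma adjusted p = 0.245) for the _s_at probe set. At this signal a difference in GER2 transcript was not detectable, and its absence was not shown in either group.

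In all, 3 of the 5 probe sets were lower in pollen, 0 were higher and the other two missed the limma threshold of 0.05 on the adjusted p. Of all probe sets, 34.5% were lower and 18.9% were higher by the same rule. An unadjusted p under 0.05 was likewise found for 0 probe sets higher in pollen. The median log2 difference of the 5 probe sets was -1.21, which is that of GER16, against -0.22 for all probe sets. It was 0.071 with quantile normalization, against 0.12 for all, and -0.060 with equal array medians, against 0.93 for all. Without sporophytic replicate 1 it was -1.64, and without replicate 2 it was -0.77. Every pollen array lay below every sporophytic array for 3 of the 5 probe sets, as for 41.7% of all, and above for the other two, as for 36.4% of all. With so few members, these shares set nothing apart about the family.

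**Figure D2:**
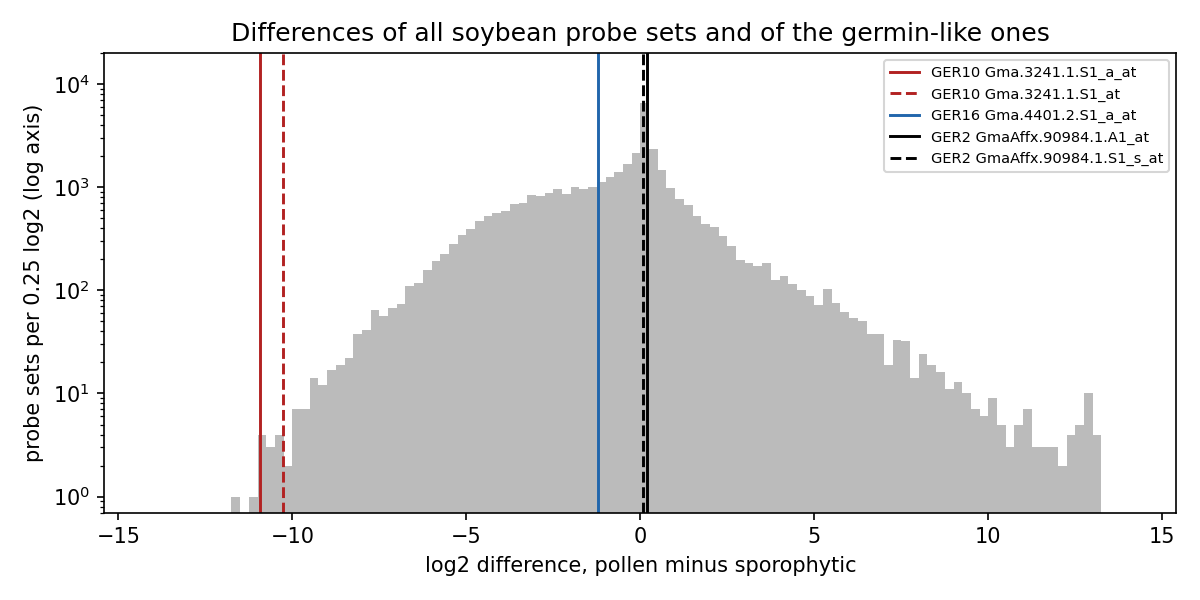
Number of soybean probe sets (log axis) by log2 difference, pollen minus sporophytic tissues, in grey, with the 5 germin-like probe sets as vertical lines coloured by gene. Both GER10 lines (-10.93 and -10.27) stand at the lower end, GER16 (-1.21) stands in the left shoulder and both GER2 lines (0.18 and 0.08) stand at the central peak.

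With the probe sets of each gene averaged, 2 of the 3 genes were lower in pollen and 0 were higher, against 34.2% and 19.3% of all genes and unnamed probe sets. GER10 averaged 2.64 ± 0.05 on the pollen arrays and 13.24 ± 0.76 on the sporophytic arrays (SD, n = 3 and 2), and differed by -10.60 with a 95% interval of -11.61 to -9.59 (standard error 0.36, limma adjusted p = 0.000178). GER2 averaged 2.63 ± 0.04 on the pollen arrays and 2.50 ± 0.01 on the sporophytic arrays, and differed by 0.13 with a 95% interval of -0.02 to 0.28 (standard error 0.05, limma adjusted p = 0.12). The 95% intervals of GER10 and GER16 did not overlap. GER10 kept its direction and its call under all 16 alternatives tried, with a difference between -11.14 and -9.45.

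**Figure D3:**
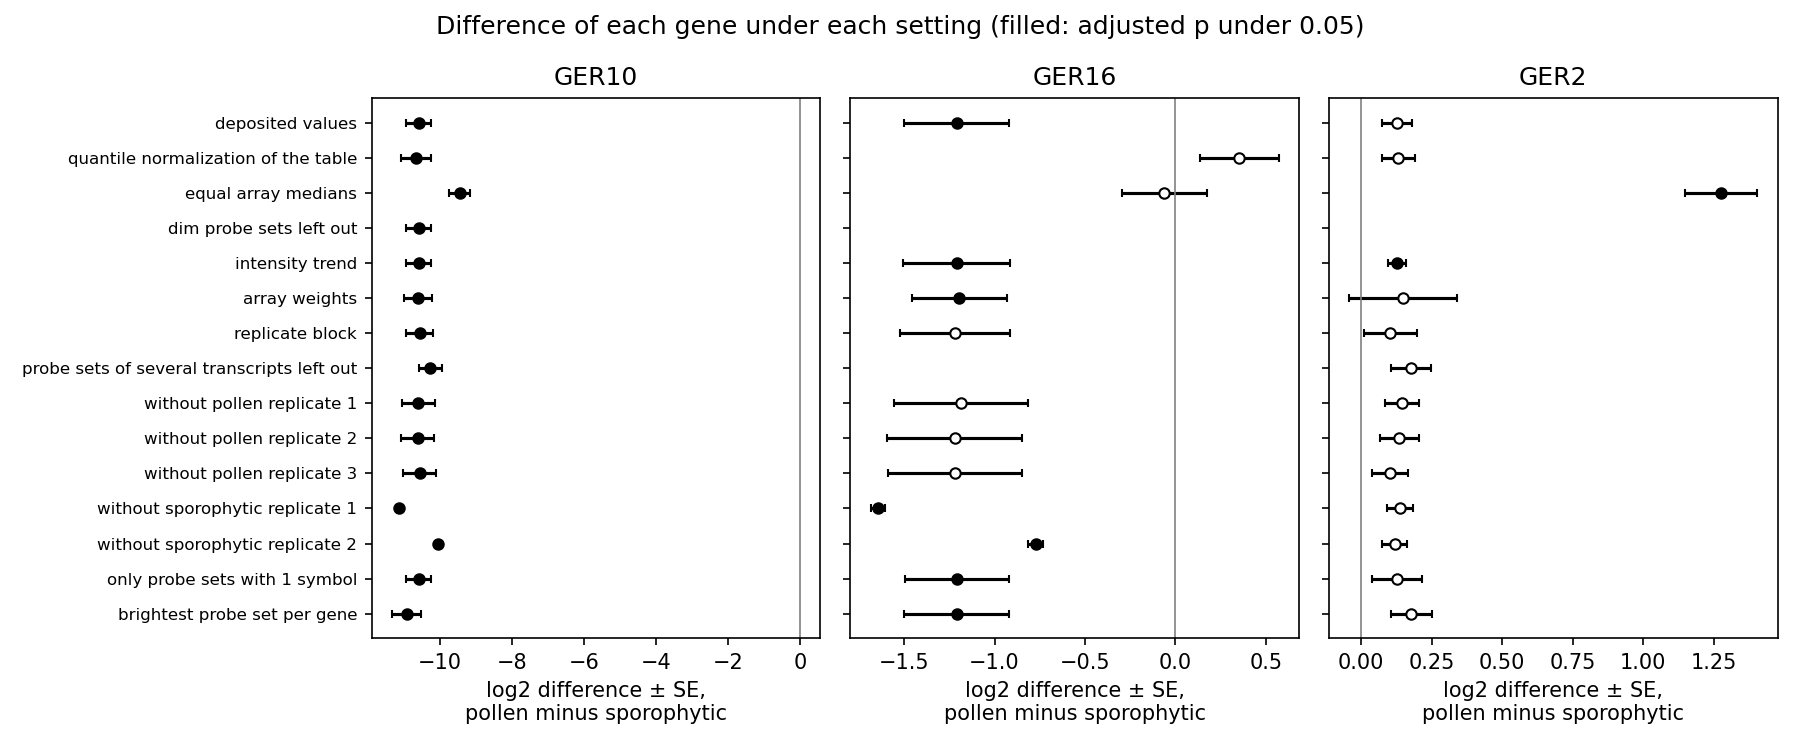
Log2 difference, pollen minus sporophytic tissues, of GER10, GER16 and GER2 under each setting, with bars of 1 standard error (from the pollen arrays alone where a sporophytic array is left out) and filled points where the adjusted p is under 0.05. GER10 stays between -11.14 and -9.45, GER16 crosses 0 with quantile normalization, and GER2 passes only with equal array medians or an intensity trend.

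Both probe sets of GER10 were higher on sporophytic replicate 2 than on replicate 1. Replicate 1 minus replicate 2 was -1.22 for the _a_at probe set, -0.94 for the _at probe set and -0.87 for GER16, while GER2 differed by 0.04 or less. Over all probe sets the median of this difference was -0.08, and 7.55, 12.9 and 14.8% of probe sets lay at least as far below 0 as each of the first 3. Light-harvesting proteins of the chloroplast, taken from the list of transcripts lower in pollen, went the other way, being higher on replicate 1 for 18 of 22 probe sets (median 1.44). The green tissue markers by symbol were split, with 5 of 11 higher on replicate 1 and 6 higher on replicate 2. On the probe sets that were lower in pollen, CAB3 had 3.21, 1.62 and 1.14, and the photosystem I subunit PSAD had -0.45, -0.21 and -0.05. The share of leaf RNA in each sporophytic sample and its part in the GER10 levels were not tested. Whichever sporophytic array was left out, GER10 was lower in pollen.

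The family reaches further in the best Arabidopsis matches that the study's additional file on transcripts lower in pollen gives for each probe set. Of that file 1992 probe sets were held here, far fewer than the lower transcripts that the paper counts, and 7 are annotated as germin-like. They include both GER10 probe sets, named there after GLP3 of Arabidopsis. The other 5 were lower in pollen as well, with log2 differences between -9.09 and -3.04, also under both other scalings. The study chose them for being lower on these arrays, so the direction is not independent evidence. The additional file on transcripts higher in pollen, with 1682 probe sets held here, names no germin-like protein. That is nearly all of the higher transcripts that the paper counts, so the lists were not held to a like extent.

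A match to Arabidopsis GLP1, LOC100816355, came closest to GER10. Its log2 signal was 4.57 on each pollen array, against 13.15 and 14.17 on the sporophytic arrays, and the log2 difference was -9.09 (standard error 0.34, limma adjusted p = 0.000218). A further match to GLP3, without a gene symbol here, had 2.18, 2.19 and 2.18 in pollen, against 10.74 and 11.77 in sporophytic tissues, a difference of -9.07 (standard error 0.34). These 2 probe sets were also higher on sporophytic replicate 2, by 1.02 and 1.04. All 4 of these bright germin-like probe sets, of which the 2 of GER10 are not independent, thus showed the same order of the sporophytic arrays. This order was also the more frequent one among all probe sets, where the median of replicate 1 minus replicate 2 was -0.08.

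The remaining 3 were dimmer in seedlings. The probe sets matched to Arabidopsis GLP5 fell by 5.18 and by 3.04, with mean log2 signals of 2.56 and 4.66 in pollen and of 7.75 and 7.70 in sporophytic tissues. A putative germin-like protein had 2.47, 2.50 and 2.66 in pollen, against 7.90 and 6.94 in sporophytic tissues. It was the only one of the 5 with a higher value on sporophytic replicate 1, by 0.96. Adjusted p was between 4.2e-05 and 0.000873 for the 5 probe sets (limma).

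**Figure D4:**
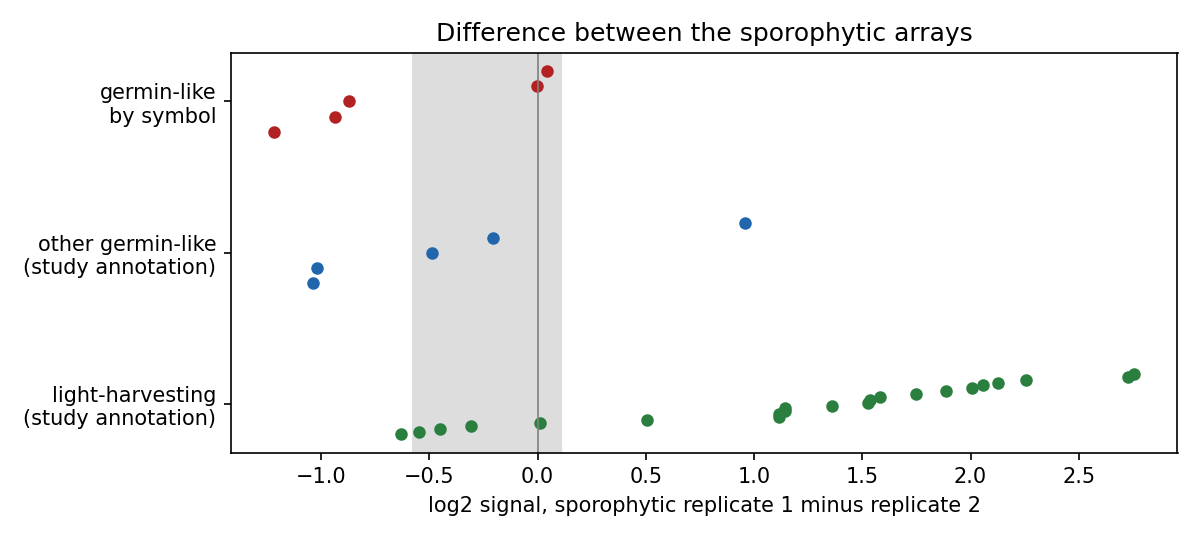
Log2 signal on sporophytic replicate 1 minus replicate 2 for the 5 germin-like probe sets by symbol (red), the 5 others by the study's annotation (blue) and 22 light-harvesting probe sets (green), 1 point per probe set, with the interquartile range of all probe sets as a grey band. The GER10 and GER16 points (-1.22, -0.94 and -0.87) and 2 blue points (-1.04 and -1.02) lie left of the band, while 18 of 22 green points lie above 0.

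Enzymes that make or remove hydrogen peroxide, the product of germin-type reactions, went in both directions. Superoxide dismutases turn superoxide into hydrogen peroxide, and among their 4 probe sets pollen was higher on 1 and lower on 2, while 1 missed the threshold (limma), beside 18.9% higher and 34.5% lower among all probe sets. SOD1, of the copper and zinc type, averaged 8.62 ± 0.20 on the pollen arrays and 11.71 ± 0.53 on the sporophytic arrays (SD, n = 3 and 2), differing by -3.09 (standard error 0.28). The 2 probe sets of the iron enzyme SODB disagreed, since the _s_at probe set fell by 2.94 and the _at probe set rose by 2.13. These 3 directions held under both other scalings. SODB2 had -0.26 with the deposited values and rose by 0.88 with equal array medians, where 2 of the 4 were thus higher and 2 lower. This scaling adds the shift between the array medians to every difference. SODB2 averaged only 2.45 in pollen and 2.71 in sporophytic tissues with the deposited values.

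Of 12 probe sets of catalases and ascorbate peroxidases, which break down hydrogen peroxide, pollen was higher on 3 and lower on 5, and 4 missed the threshold, against the same shares of all probe sets. CAT4 fell by 7.69 on one probe set, where it averaged 3.22 ± 0.18 on the pollen arrays and 10.91 ± 0.38 on the sporophytic arrays (SD, n = 3 and 2). APX1 rose by 2.94 on one probe set, averaging 12.96 ± 0.08 on the pollen arrays and 10.02 ± 0.07 on the sporophytic arrays, and fell by 3.47 on another. Probe sets annotated to the same symbol thus disagreed in direction for SODB and APX1. The higher calls among the 12 numbered 5 with quantile normalization and 7 with equal array medians, with 5 lower under both. Over all probe sets 37.0% were higher and 26.4% lower with quantile normalization, and 53.3% were higher and 26.2% lower with equal array medians.

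Wall peroxidases use hydrogen peroxide to cross-link wall polymers. Pollen was lower on 5 of their 7 probe sets and higher on 1, and 1 missed the threshold (limma), where all probe sets gave 34.5% lower and 18.9% higher. PRX2B fell by 7.20 and PRX2 fell by 6.09, while PRX3 rose by 1.71 on one of its probe sets. With quantile normalization 4 were lower and 1 was higher, beside 26.4% and 37.0% of all probe sets. With equal array medians 4 were lower and 2 were higher, beside 26.2% and 53.3%. No probe set carried an RBOH symbol, so NADPH oxidases were not analysed here.

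Among other cupins by symbol, pollen was higher on 7 of 14 probe sets and lower on 1, and 6 missed the threshold, with 18.9% higher and 34.5% lower among all probe sets. The pattern for this list also caught SBPRP, which the study annotates as a protease inhibitor, seed storage or lipid transfer protein, and SBP65, a biotinylated seed protein. SBPRP gave the single lower call, with a log2 difference of -8.34, and SBP65 one of the higher calls, of 0.21. The glycinin GY1 rose by 0.92 on its _s_at probe set and the conglycinin CG-BETA-1 rose by 2.39 on its _at probe set. None of the 14 reached a signal of 100 on every pollen array, and 1, SBPRP, did so in sporophytic tissues. With equal array medians 12 were higher and 1 was lower, while 53.3% of all probe sets were then higher and 26.2% lower. That scaling adds the same constant to every difference, also to those of probe sets near the floor.

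The named genes closest to GER10 in profile were VSPA, ADR11, ALAAT2, GASA27 and PETC, the same 5 for both of its probe sets. Likeness was the Euclidean distance over the 5 arrays between log2 values centred on each probe set's own mean, among 859 gene symbols, a rule set after the values were seen. Locus numbers and symbols with a hyphen or colon were left out. VSPA, a vegetative storage protein, had a distance of 1.72 to the _a_at probe set and 1.21 to the _at probe set, and a log2 difference of -9.84. PETC, the Rieske protein of photosynthetic electron transport, was the farthest of the 5, at 2.64 and 1.89, with a difference of -8.57. PTF1, MYB51 and COI1 were closest to GER16, at distances of 0.10, 0.15 and 0.17.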

How the data were processed

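Mature pollen (3 arrays) and sporophytic tissues (2 arrays) were measured on the soybean GeneChip. The deposited values are log2 signals, which the methods describe as made by RMA from raw signals in AffylmGUI (the sources used here give no version). Their medians differ between the groups, which quantile normalization of all 5 arrays together would not leave. The deposited table holds soybean probe sets only. It has no comparison columns. Its differences for AHA8 (12.48) and the match to LAT59 (12.93) were larger than the log2 ratios in the paper. The paper also counts fewer changed transcripts than the 7104 higher and 12969 lower probe sets called here. The reason was not tested. Neither raw scans nor present calls were analysed here.

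All 37593 probe sets were fitted with limma 3.58.1 in R 4.3.3 (lmFit and eBayes, with 3 residual and 0.854 prior degrees of freedom). P-values are two-sided and were adjusted by Benjamini-Hochberg across the whole table, at a threshold of 0.05. For values per gene, probe sets of 1 symbol were averaged first. No filter was applied. The members and lists were chosen with earlier results of these data known. All members are named, and values on every array are given also for GER2, which did not reach a signal of 100. List members were named after their values were seen. The annotation gave 1 symbol to 8677 probe sets, several to 370 and none to 28546, and 0 members carried several. The design also foresaw a list by gene description and a comparison of protein sequences. Neither was made, since the tables used here hold no descriptions and no sequences. The number of arrays limits the precision, and p-values measure the spread between these biological replicates. Except with array weights, the fit assumes equal variance in both groups. The sporophytic SD was larger for GER10 (0.86 against 0.06 in pollen for _a_at, 0.66 against 0.07 for _at) and GER16 (0.62 against 0.04). For these probe sets the standard errors, intervals and adjusted p may thus be too small or too narrow. The GER2 _at probe set went the other way, with 0.003 against 0.087. The steps were tested on simulated data. Plots used matplotlib 3.10.9 (Python 3.11.15). Probe sets are called by gene and by the ending of their array identifier.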

Additional observations from a re-analysis of the deposited data

How the results depend on the processing

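GER10 was called lower under every alternative that could be computed. The count of lower genes fell to 1, against 2 with the deposited values, at an adjusted p under 0.01, with quantile normalization, with equal array medians, with dim probe sets left out and with probe sets of several transcripts left out, where GER16 is not in the last 2 fits. It was 1 in each fit without a pollen array, where 28.3 to 29.6% of all probe sets were lower. Where a sporophytic array is left out, the other is assumed to vary like the pollen arrays. With the replicate number as a block it was 1, since GER16 then had an adjusted p of 0.127 and a difference of -1.22. No source says that equal numbers pair the arrays, and deviations with the same number had a correlation of 0.024 and 0.016. The block changed no other call. Lower probe sets numbered 1, against 3, with probe sets of several transcripts left out, where 2 of the 5 were tested. In that fit 31.6% of all probe sets were lower. With equal array medians 2 probe sets and 1 gene were higher, all of GER2, beside 53.3% of all probe sets. This scaling adds the shift between the array medians to every difference, and GER2 lay near the floor on all arrays. With an intensity trend 1 probe set and 1 gene were higher, again of GER2, beside 25.3% of all probe sets. Without single pollen arrays 0 probe sets were higher, beside 12.8 to 16.3% of all. Without sporophytic replicate 1 the GER2 _s_at probe set differed by 0.10. GER16 turned to 0.35 with quantile normalization. The median difference of the 5 probe sets was 0.071 with quantile normalization, -0.060 with equal array medians, and between -1.64 and -0.77 without single arrays (-1.64 without sporophytic replicate 1, -0.77 without replicate 2). The median of all differences was 0.12 and 0.93 under these scalings, against -0.22. Lower calls were 64.6% of all calls with the deposited values, 41.7% with quantile normalization and 32.9% with equal array medians. Over all probe sets, 7104 were higher and 12969 lower, against 13917 and 9940 with quantile normalization, 20047 and 9837 with equal array medians, 3511 and 8634 with the block, 2182 and 8350 with array weights, and 3784 and 8118 of 13831 without dim probe sets. At an adjusted p under 0.01 there were 4306 higher and 10068 lower. The number of members at the signal minimum stayed at 0 in pollen under other minimums and scalings. In sporophytic tissues it stayed at 2, except for 3 at a minimum of 50. GER16 lay just under that minimum in pollen, with linear signals of 47.6, 49.96 and 49.8. The fit of probe sets with 1 symbol only was chosen after the data were seen, and kept all calls.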
